A study of Danio rerio with 2 samples.

Results

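The genes described here are 9 zebrafish genes of the extracellular arm of bone morphogenetic protein (BMP) signalling: the ligands bmp2b, bmp4, bmp7a and admp, the secreted antagonists chrd and nog1, the secreted regulator szl, the metalloprotease tll1 and the membrane pseudoreceptor bambia. They were taken by symbol from the deposited list of 27597 genes, where each of the 9 is carried by 1 identifier. Their expression was followed by single-cell RNA sequencing of whole embryos at the shield stage in 1 MZwnt11/slb library of 7911 cells and 1 wildtype library of 8862 cells. MZwnt11/slb embryos lack maternal and zygotic function of wnt11f2, the gene mutated in silberblick (allele tx226), and the wildtype strain of the study is A2B2. Whole embryos were dissociated and fixed in the same step, and the cells were sorted after DAPI staining. How many embryos went into a library was not stated in the sources used.

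BMP ligands are secreted dimers that specify ventral cell fates in the gastrula. On the dorsal side the organizer (the shield in fish) secretes Chordin and Noggin, which bind BMP and keep it from its receptors, so that signalling is graded from ventral to dorsal. Tolloid-type metalloproteases cut Chordin and free the ligand, Sizzled inhibits these proteases, and Admp is a BMP family ligand made dorsally, where BMP signalling is low.

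The libraries held 40025626 UMIs (unique molecular identifiers, each 1 counted transcript) in MZwnt11/slb and 37370253 in wildtype, with medians of 4595 and 3873.5 UMIs per cell. With 1 library per genotype there was no replicate and no test. All intervals are 95% intervals that cover counting error only, and genotype, parents, clutch and library preparation cannot be told apart. The libraries stood apart as a whole: when they were clustered without centring by sample, 25 of 28 clusters, holding 98.3% of all cells, drew over 95% of their cells from 1 library. Of the barcode sequences, 16 occurred in both libraries. The mutated gene, wnt11f2, was detected at 41.4 CPM (UMIs scaled to 1000000 UMIs of the library or class) in MZwnt11/slb and at 99.3 CPM in wildtype, a log2 ratio of -1.26 (-1.34 to -1.18). A mutant transcript is still tagged at its 3′ end, so this does not test the genotype.

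Cells of both libraries were clustered together after centring by sample, with the 9 genes and wnt11f2 left out, and 17 of 29 clusters were named from marker genes as "-like" classes. Cluster 21 held the axial cells, with frzb, gsc, shha and foxa2 among its 10 leading genes, and was split once more. Its prechordal-like cells (152 in MZwnt11/slb and 88 in wildtype) expressed gsc at 1188 and 1038 CPM, and its notochord-like cells (98 and 62) expressed noto at 830 and 833 CPM. The border between them was not sharp, since the notochord-like cells still carried gsc at 829.6 and 549.5 CPM. Axial cells made up more of the MZwnt11/slb library: prechordal-like cells were 1.92% of its cells (1.63 to 2.25, exact binomial) and 0.993% (0.797 to 1.22) of wildtype cells. The other classes used here were dorsal posterior ectoderm-like (563 and 369 cells, led by foxd3 and foxb1a, with noto among its leading genes), ventral ectoderm-like (397 and 1570), ventrolateral margin-like (961 and 1036), paraxial mesoderm-like (522 and 619), enveloping layer-like (774 and 829) and anterior neural ectoderm-like cells (172 and 472). The last class was poorly separated, with otx2b at 7.82 and 10.6 CPM and the ventral gene foxi1 at 49.2 and 134.8 CPM. The ventral ectoderm-like class was no sharper, with foxi1 at 54.0 and 124.0 CPM. Its own marker list summed to 645.1 and 864.9 CPM in it, below the 768.6 and 958.7 CPM in anterior neural ectoderm-like cells. The anterior neural list stood at 2036 and 2116 CPM in ventral ectoderm-like cells and at 2329 and 2248 CPM in anterior neural ones. Levels and steps given for the ventral ectoderm carry this limit. In dorsal posterior ectoderm-like cells the notochord list stood at 927.8 and 993.4 CPM, above the class's own list at 799.2 and 755.0 CPM. The anterior neural list stood at 2136 and 2337 CPM in these cells, near its level in anterior neural ones. Cells of notochord type may be mixed into the dorsal posterior ectoderm-like class, and levels given for it carry these limits. The largest part of the ventral ectoderm-like cells lay in cluster 6 in MZwnt11/slb (226 of 397) and in cluster 3 in wildtype (782 of 1570), and most enveloping layer-like cells lay in cluster 14 in MZwnt11/slb and in cluster 12 in wildtype. The 12 unnamed clusters held 50.7% of MZwnt11/slb and 37.8% of wildtype cells.

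The 3 ventral ligands were low in the dorsal ectoderm and high in the ventrolateral ectoderm, margin and paraxial mesoderm of both libraries, and bmp4 and bmp7a were lower in MZwnt11/slb nearly everywhere. bmp2b (ENSDARG00000041430) encodes the subunit without which zebrafish embryos are dorsalized. Its level was 16.8 CPM in MZwnt11/slb and 19.2 CPM in wildtype dorsal posterior ectoderm-like cells, against 93.3 and 113.3 CPM in ventral ectoderm-like cells. The step between these classes was 5.56-fold in MZwnt11/slb (log2 ratio of dorsal over ventral -2.48, -2.99 to -1.99) and 5.89-fold in wildtype (-2.56, -3.16 to -2.02). Its highest class was paraxial mesoderm-like, at 140.2 CPM in MZwnt11/slb and 117.7 CPM in wildtype. In wildtype this level and those of the anterior neural and ventral ectoderm-like classes did not differ beyond counting error. Over all cells bmp2b differed least between libraries of the 4 ligands (log2 ratio -0.30, -0.37 to -0.22). Its log2 ratios were -0.27 (-0.51 to -0.03) in the ventrolateral margin, -0.28 (-0.54 to -0.03) in the ventral ectoderm and 0.25 (0.04 to 0.46) in the paraxial mesoderm. The difference was larger in the anterior neural ectoderm (-0.59, -0.99 to -0.21) and in notochord-like cells (-1.49, -2.65 to -0.36), the latter with only 13 and 17 UMIs.

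bmp4 (ENSDARG00000019995) encodes a ligand of the ventral and ventrolateral embryo. It was highest in ventrolateral margin-like cells, with 435 UMIs (96.7 CPM) in MZwnt11/slb and 716 UMIs (167.3 CPM) in wildtype, a log2 ratio of -0.79 (-0.97 to -0.62). Anterior neural ectoderm-like cells held bmp4 at 74.8 CPM in MZwnt11/slb and 123.5 CPM in wildtype, above the 53.4 and 90.4 CPM of ventral ectoderm-like cells. The gene was also low in dorsal posterior ectoderm-like cells, at 15.7 and 22.0 CPM. The axial cells did not follow a plain dorsal to ventral order. Prechordal-like cells, the most dorsal class with the highest chrd, carried bmp4 at 56.8 CPM in MZwnt11/slb (41 UMIs) and 117.4 CPM in wildtype (38 UMIs). This was 3.63 and 5.34 times the level in dorsal posterior ectoderm-like cells, and in wildtype no different beyond counting error from the level in paraxial mesoderm-like cells. In MZwnt11/slb the intervals of the prechordal and paraxial levels overlapped as well (40.8 to 77.1 and 46.2 to 62.2 CPM). Notochord-like cells carried bmp4 at 54.0 CPM in MZwnt11/slb (27 UMIs) and 94.4 CPM in wildtype (22 UMIs). The library difference in prechordal-like cells was at -1.05 (-1.72 to -0.37), and under 10 of 16 other settings it was smaller than 2-fold. In paraxial mesoderm-like cells bmp4 was at 53.8 and 114.3 CPM, a log2 ratio of -1.09 (-1.36 to -0.82).

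bmp7a (ENSDARG00000018260) encodes the partner with which Bmp2b forms the active heterodimer. It was highest in paraxial mesoderm-like cells (153.0 CPM in MZwnt11/slb and 269.9 CPM in wildtype) and next in ventrolateral margin-like cells (122.7 and 228.7 CPM). Each of the 8 classes described above had less bmp7a in MZwnt11/slb, and the interval of the ratio lay below 0 in each of these but the enveloping layer (-0.27, -0.62 to 0.08). That class value carries an unequal share of cluster 24, which held 120 of its 130 MZwnt11/slb and 44 of its 146 wildtype bmp7a UMIs. Within cluster 24 the ratio was -1.28 (-1.79 to -0.75). The log2 ratio was -0.90 (-1.05 to -0.75) in the ventrolateral margin, -0.68 (-0.90 to -0.46) in the ventral ectoderm and -0.91 (-1.47 to -0.35) in the dorsal posterior ectoderm. The last value turned to 0.74 when the cells were clustered without centring by sample. In prechordal-like cells only 13 UMIs were counted in MZwnt11/slb and 25 in wildtype. Cluster by cluster, bmp7a was lower in MZwnt11/slb in 24 of 25 clusters with at least 25 cells of each library, and bmp4 in 22 of the 24 that had at least 20 bmp4 UMIs.

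**Figure D1:**
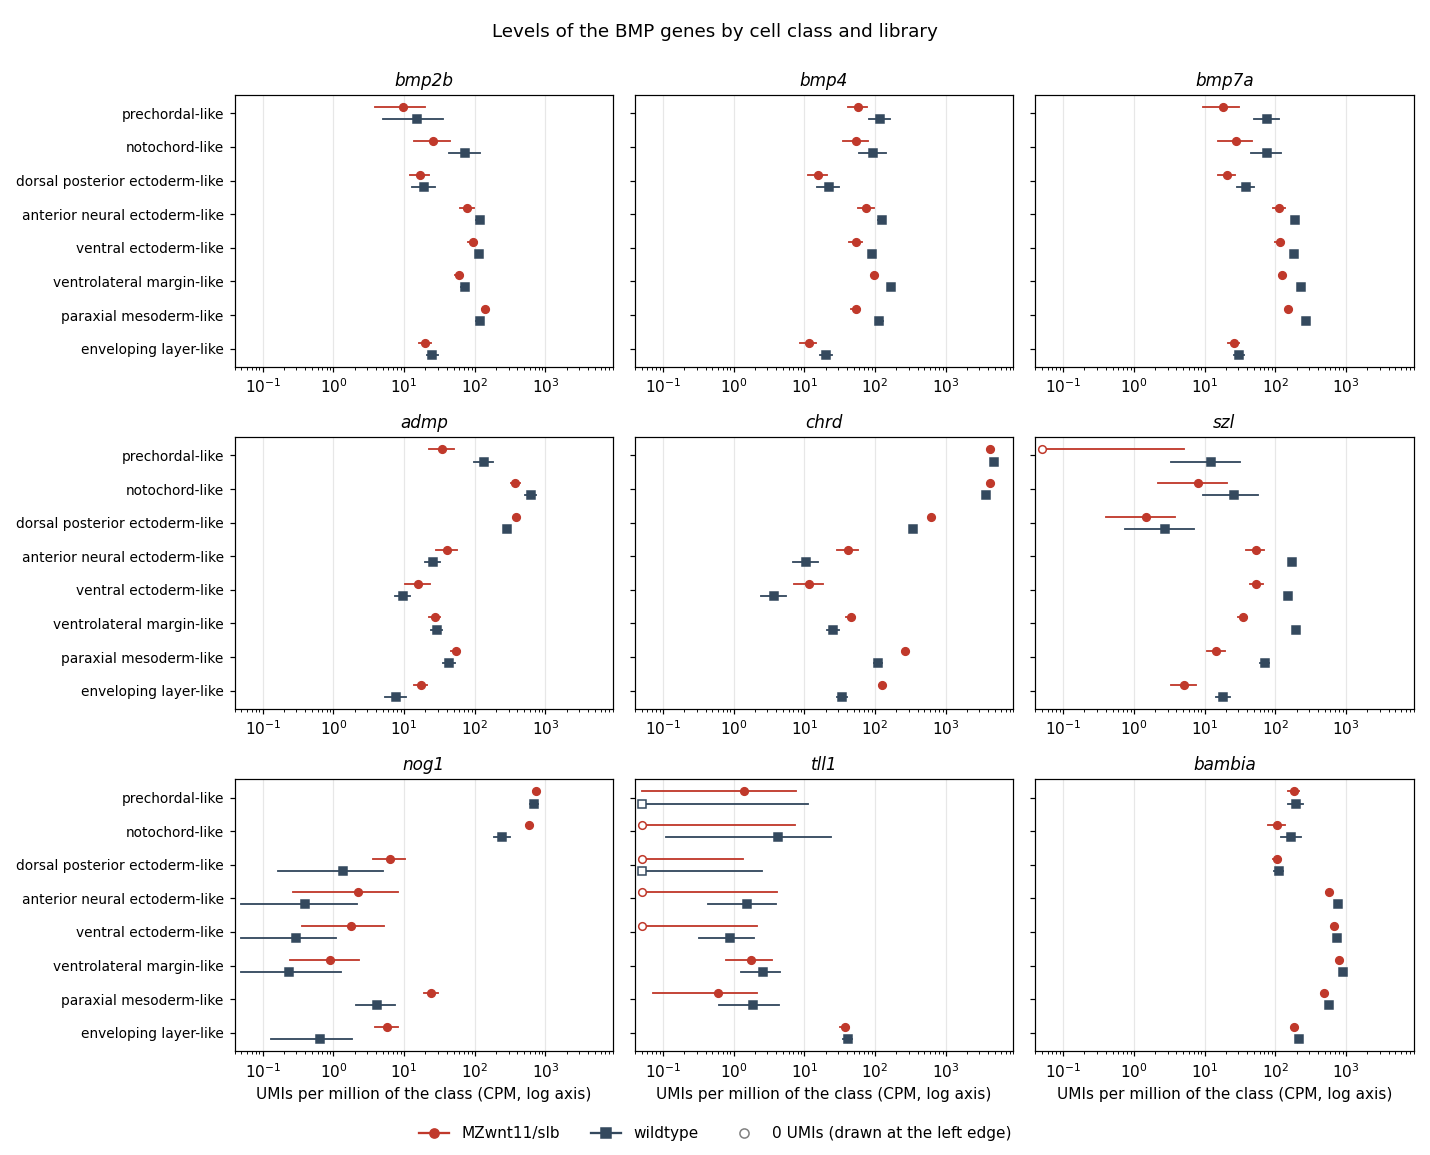
Level of each of the 9 genes (CPM within the class, log axis) in 8 marker-defined cell classes, MZwnt11/slb as circles above wildtype as squares, with exact Poisson 95% intervals that cover counting error only and open symbols for 0 UMIs. chrd and nog1 peak in the prechordal-like and notochord-like cells and tll1 in the enveloping layer-like cells. szl lies further left in MZwnt11/slb in each class, but has too few UMIs to compare in the axial and dorsal posterior classes.

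admp (ENSDARG00000025372), the dorsally expressed BMP family ligand, was highest in notochord-like and dorsal posterior ectoderm-like cells. In notochord-like cells it was at 375.8 CPM in MZwnt11/slb (188 UMIs) and 618.2 CPM in wildtype (144 UMIs), and in prechordal-like cells at 34.7 CPM (25 UMIs) and 132.8 CPM (43 UMIs). Notochord-like cells thus held 10.8 times the prechordal-like level in MZwnt11/slb (log2 3.44, 2.83 to 4.10) and 4.65 times in wildtype (2.22, 1.72 to 2.75). In dorsal posterior ectoderm-like cells admp was at 387.7 and 281.7 CPM, which was 24.5 and 29.6 times the ventral ectoderm-like level of 15.8 and 9.53 CPM. The dorsal posterior ectoderm-like class held 34.8% of all admp UMIs in MZwnt11/slb and 27.8% in wildtype, more than the axial cells did.

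The library difference of admp had no single direction. It was lower in MZwnt11/slb in prechordal-like (log2 ratio -1.94, -2.71 to -1.19) and notochord-like cells (-0.72, -1.04 to -0.39), higher in dorsal posterior ectoderm-like cells (0.46, 0.29 to 0.63), and within counting error in the ventrolateral margin (-0.09, -0.47 to 0.28). Without centring by sample the dorsal posterior value was -0.43. The axial values turned on where the cells were divided. With the unweighted neighbour graph the prechordal-like ratio was 0.00. With cells gated on marker genes it was -0.70 in the prechordal gate and 0.59 in the notochord gate. The notochord gate took 558 MZwnt11/slb and 390 wildtype cells, with chrd at 578.6 and 367.3 CPM, against 4170 and 3649 CPM in notochord-like cells. It thus took in many cells outside the notochord-like class, and 0.59 does not describe that class alone. Over all cells admp was at 74.6 CPM in MZwnt11/slb and 39.4 CPM in wildtype, a log2 ratio of 0.92 (0.83 to 1.01).

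chrd (ENSDARG00000006110), which encodes the BMP antagonist Chordin, was graded along the dorsal to ventral order. It reached 4244 CPM in MZwnt11/slb and 4797 CPM in wildtype prechordal-like cells, and 4170 and 3649 CPM in notochord-like cells. In dorsal posterior ectoderm-like cells it was at 611.3 and 340.8 CPM, and in ventral ectoderm-like cells at 11.7 and 3.72 CPM. The level in prechordal-like cells was 93.6 times that of the ventrolateral margin in MZwnt11/slb (log2 6.55, 6.34 to 6.76) and 190.1 times in wildtype (7.57, 7.29 to 7.87). The contrast between dorsal and ventral ectoderm was 52.1-fold in MZwnt11/slb (5.70, 5.07 to 6.42) and 91.5-fold in wildtype (6.52, 5.94 to 7.16).

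The level of chrd within the axial classes, where it was strongest, changed little between libraries, and the larger differences in level lay outside them. The axial cluster itself was larger in MZwnt11/slb, with 250 cells and 5147 chrd UMIs, against 150 cells and 2403 chrd UMIs in wildtype. The all-cell chrd ratio carries this difference in makeup too. In prechordal-like cells the log2 ratio was -0.18 (-0.27 to -0.09) and in notochord-like cells 0.19 (0.08 to 0.31). In dorsal posterior ectoderm-like cells it was 0.84 (0.70 to 0.99), in the ventrolateral margin 0.85 (0.50 to 1.2), in the paraxial mesoderm 1.28 (1.09 to 1.48) and in the enveloping layer 1.85 (1.60 to 2.11). The enveloping layer value carries an unequal share of cluster 24, which held 393 of its 626 MZwnt11/slb and 17 of its 161 wildtype chrd UMIs. Within cluster 24 the ratio was 1.80 (1.11 to 2.60). The margin value ran between 0.10 without centring by sample and 1.90 with cells gated on marker genes. With each cell thinned to 2944 UMIs, a chrd UMI was found in 56.8% of MZwnt11/slb and 34.1% of wildtype dorsal posterior ectoderm-like cells (67.3% and 44.2% unthinned). In ventral ectoderm-like cells, which should lack chrd, the thinned shares were 3.38% and 1.16% (4.79% and 1.53% unthinned), at median depths of 4166 and 4171 UMIs, against medians of 4608 and 3929 in the dorsal class. In enveloping layer-like cells they were 11.7% and 4.63%. The summed prechordal markers, 8 genes, moved with these values: in enveloping layer-like cells they stood at 120.5 CPM in MZwnt11/slb and 44.2 CPM in wildtype (0 of 8 markers at 0 UMIs in either), in the ventrolateral margin at 52.9 and 28.0 CPM, and in the paraxial mesoderm at 659.0 and 536.4 CPM. Their part in the chrd values was not tested. Cluster by cluster, chrd was higher in MZwnt11/slb in 18 of 23 clusters with at least 20 chrd UMIs, with the interval above 0 in 15, and lower in 5. The interval lay below 0 in the unnamed cluster 7, led by mitochondrial genes such as mt-atp6, at 84.4 CPM in MZwnt11/slb and 168.7 CPM in wildtype (log2 interval -1.45 to -0.53). The paraxial value was also carried by cluster 23, whose median depths were 9739 and 7801 UMIs, and it was 0.83 without the clusters of highest depth.

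nog1 (ENSDARG00000058819) encodes the antagonist Noggin and was counted mainly in the axial cells. Prechordal-like cells held 532 of its 1027 UMIs in MZwnt11/slb (737.6 CPM) and 224 of its 327 UMIs in wildtype (692.0 CPM). No difference between libraries was detectable there (log2 ratio 0.09, -0.14 to 0.32). Notochord-like cells held nog1 at 587.7 CPM in MZwnt11/slb (294 UMIs) and at 244.7 CPM in wildtype (57 UMIs), a log2 ratio of 1.26 (0.85 to 1.70). After thinning, 64.6% of MZwnt11/slb and 31.4% of wildtype notochord-like cells had a nog1 UMI (75.5% and 37.1% unthinned, at median depths of 4281.5 and 3411 UMIs), against 0.282% and 0.0684% of ventral ectoderm-like cells (0.756% and 0.127% unthinned). The step between the axial classes was shallower in MZwnt11/slb, with notochord over prechordal at -0.33 (-0.54 to -0.12) in MZwnt11/slb and -1.50 (-1.95 to -1.07) in wildtype. The notochord difference ran between 0.93 and 2.37 over 16 other settings. The highest value came from the notochord marker gate, whose many cells outside this class left nog1 at 13.3 and 2.59 CPM. Prechordal markers were also higher in the MZwnt11/slb notochord-like cells, with the 8 genes summed at 3712 CPM in MZwnt11/slb and 3177 CPM in wildtype and gsc at 829.6 and 549.5 CPM, while the summed notochord markers were at 2917 and 3168 CPM. Their part in the nog1 value was not tested. In paraxial mesoderm-like cells nog1 had 82 and 11 UMIs, a ratio of 2.54 (1.63 to 3.60) that was 1.23 without the clusters of highest depth.

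**Figure D2:**
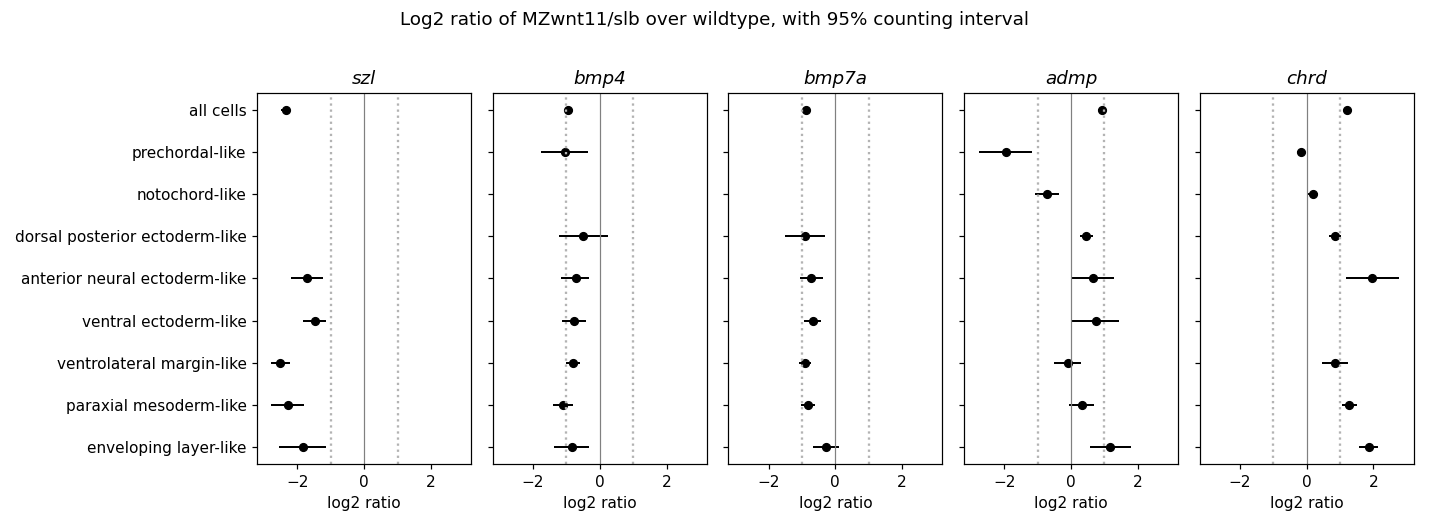
Log2 ratio of MZwnt11/slb over wildtype for szl, bmp4, bmp7a, admp and chrd (x axis) in all cells and in each class with at least 50 UMIs (y axis), points with exact conditional 95% counting intervals, dotted lines at 2-fold. szl, bmp4 and bmp7a lie left of 0 throughout, chrd lies right of 0 except in prechordal-like cells (-0.18), and admp lies on both sides.

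szl (ENSDARG00000099637) encodes Sizzled, a secreted Frizzled-related protein that inhibits the Chordin-cutting proteases and is itself expressed ventrally under BMP control. Over all cells it had the largest log2 ratio, in size, of the 9 genes. In MZwnt11/slb it was at 34.5 CPM in the ventrolateral margin (155 UMIs), 54.0 CPM in the ventral ectoderm (92 UMIs) and 1.49 CPM in the dorsal posterior ectoderm (4 UMIs), while wildtype had 196.2 CPM (840 UMIs), 151.0 CPM (1014 UMIs) and 2.75 CPM (4 UMIs) in these classes. Anterior neural ectoderm-like cells held szl at 52.5 CPM in MZwnt11/slb (47 UMIs) and 170.5 CPM in wildtype (435 UMIs), the latter above the ventral ectoderm-like level. The gene was thus scarce in the dorsal posterior class of both libraries but not restricted to the ventral class of the ectoderm. Its level outside the dorsal posterior and axial classes was lower in MZwnt11/slb. The log2 ratio was -2.51 (-2.77 to -2.26) in the ventrolateral margin, -2.28 (-2.76 to -1.82) in the paraxial mesoderm, -1.48 (-1.81 to -1.17) in the ventral ectoderm and -1.83 (-2.52 to -1.18) in the enveloping layer. In the enveloping layer, cluster 24 held all 26 MZwnt11/slb and 29 of the 86 wildtype szl UMIs. Within that cluster the ratio was -2.88 (-3.71 to -2.07). Dorsally, szl was too scarce to compare, with 4 UMIs in each library in the dorsal posterior ectoderm-like cells and, in prechordal-like cells, 0 UMIs in MZwnt11/slb (a floor of 3 counts is 4.16 CPM) and 4 UMIs in wildtype. After thinning, 6.76% of MZwnt11/slb and 31.7% of wildtype ventrolateral margin-like cells had an szl UMI (10.3% and 35.3% unthinned, at median depths of 4477 and 3832.5 UMIs). The dorsal posterior ectoderm-like cells, which should lack it, had it in 0.404% and 0.345% (0.533% and 1.08% unthinned). The order of ventral classes differed as well: the log2 ratio of ventrolateral margin over ventral ectoderm was -0.65 (-1.03 to -0.26) in MZwnt11/slb and 0.38 (0.24 to 0.51) in wildtype.

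The lower szl was not confined to any class. Of 23 clusters with at least 25 cells of each library and at least 20 szl UMIs, 22 had less szl in MZwnt11/slb, and in 20 the interval lay below 0. The exception was the unnamed cluster 10, at 0.40. Cluster ratios ran from -3.84 to 0.40 with a median of -1.97. Over all cells szl stood at 23.7 CPM in MZwnt11/slb and 120.5 CPM in wildtype, a log2 ratio of -2.35 (-2.45 to -2.24), which lies inside the central 95% of all 13440 genes with at least 50 UMIs (-2.62 to 1.87). Its ratios lay below the same range in the ventrolateral margin (-1.75 to 1.32) and the paraxial mesoderm (-1.55 to 1.39). They lay inside it in the ventral ectoderm (-2.16 to 1.11) and the anterior neural ectoderm (-1.74 to 1.07). The ventral ectoderm marker list (9 genes) was lower as well in ventral ectoderm-like cells, at 645.1 CPM in MZwnt11/slb and 864.9 CPM in wildtype, and the ventrolateral margin list was at 2641 and 2878 CPM in ventrolateral margin-like cells. Their part in the szl value was not tested.

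**Figure D3:**
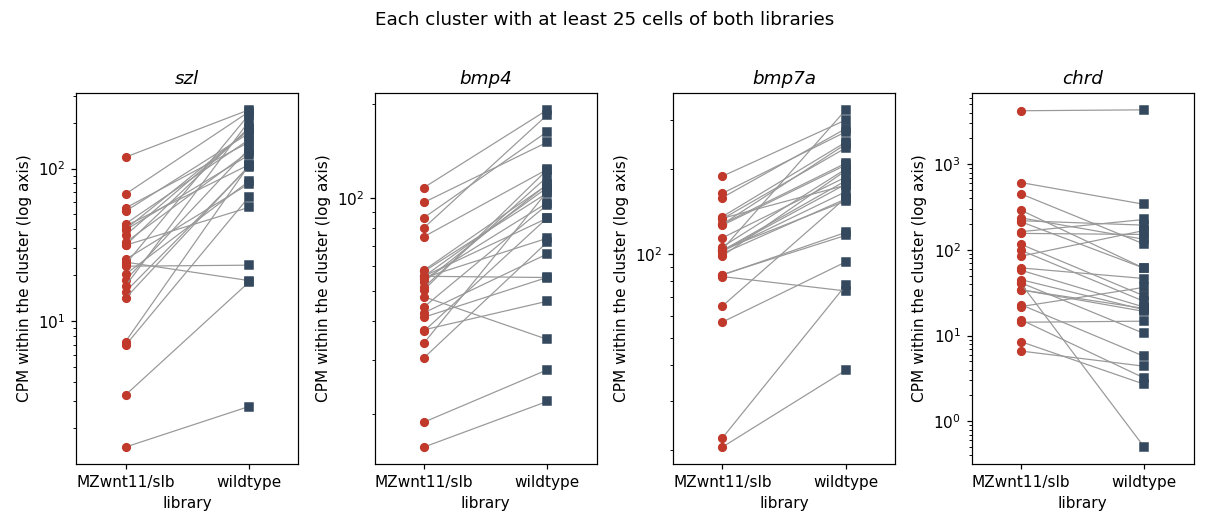
CPM of szl, bmp4, bmp7a and chrd (y axes, log) in each of 25 clusters with at least 25 cells of both libraries, MZwnt11/slb on the left joined to wildtype on the right by a line per cluster, with the 1 value of 0 (chrd in wildtype cells of cluster 20) drawn at 0.5 CPM. The szl lines climb towards wildtype in nearly every cluster, those of bmp4 and bmp7a do so by less, and most chrd lines descend, with that of the axial cluster at the top flat (log2 ratio -0.03) and that of cluster 7 climbing (84.4 and 168.7 CPM).

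tll1 (ENSDARG00000037429), which encodes a Tolloid-type protease that cuts Chordin, was an enveloping layer gene at this stage. That class held 188 of its 213 UMIs in MZwnt11/slb (37.2 CPM) and 193 of its 244 UMIs in wildtype (41.0 CPM). No difference between libraries was detectable (log2 ratio -0.14, -0.44 to 0.15). The next class with any number of UMIs, the ventrolateral margin, had 8 UMIs in MZwnt11/slb (1.78 CPM) and 11 in wildtype (2.57 CPM). Dorsal posterior ectoderm-like cells had 0 UMIs in both libraries. The exact Poisson interval allows up to 1.38 CPM there in MZwnt11/slb and 2.53 CPM in wildtype.

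bambia (ENSDARG00000055381), a kinase-less pseudoreceptor that dampens BMP signalling and is induced by it, was broad and lowest in dorsal posterior ectoderm-like cells. Anterior neural ectoderm-like cells held 576.4 CPM in MZwnt11/slb and 774.1 CPM in wildtype. bambia was at 806.1 CPM in MZwnt11/slb and 906.0 CPM in wildtype ventrolateral margin-like cells, 670.3 and 753.4 CPM in ventral ectoderm-like cells and 105.5 and 111.3 CPM in dorsal posterior ectoderm-like cells. The ventral over dorsal step in the ectoderm had overlapping intervals in the libraries, with dorsal over ventral at -2.67 (-2.86 to -2.48) in MZwnt11/slb and -2.76 (-2.99 to -2.53) in wildtype. Over all cells its log2 ratio was -0.43 (-0.45 to -0.40). In anterior neural ectoderm-like cells it was also -0.43 (-0.57 to -0.28), and in notochord-like cells, with 53 and 39 UMIs, -0.66 (-1.28 to -0.02). The difference was smaller in the margin (-0.17, -0.23 to -0.10), the ventral ectoderm (-0.17, -0.26 to -0.08) and the paraxial mesoderm (-0.19, -0.29 to -0.09). Its interval held 0 in prechordal-like cells (-0.10, -0.54 to 0.36) and in dorsal posterior ectoderm-like cells (-0.08, -0.36 to 0.21).

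In both libraries szl, bmp2b, bmp4, bmp7a and bambia were found less often in chrd cells than in cells without chrd. admp and nog1 were found more often in chrd cells. After thinning, 37.6% of MZwnt11/slb cells with a chrd UMI also had an admp UMI (34.8 to 40.4) and 1.03% had an szl UMI (0.53 to 1.79), while 7.24% and 5.43% of cells without chrd had them. In wildtype, 37.0% of chrd cells had admp (32.6 to 41.5) and 6.77% had szl (4.67 to 9.41), and 4.78% and 21.3% of cells without chrd had them. nog1 cells were nearly all chrd cells, 86.8% in MZwnt11/slb (81.6 to 91.0) and 87.8% in wildtype (78.7 to 94.0). Among szl cells, bmp7a was found in 40.8% in MZwnt11/slb and 53.2% in wildtype, against 21.2% and 30.4% of cells without szl. nog1 cells had bmp4 in 16.4% in MZwnt11/slb (11.7 to 21.9) and 28.0% in wildtype (18.7 to 39.1), against 12.6% and 22.4% of cells without nog1. The intervals of cells with and without nog1 overlapped in both libraries. bmp7a was found in 8.58% of MZwnt11/slb and 15.4% of wildtype chrd cells, against 24.9% and 36.5% of cells without chrd. The broad gene bambia was found in 28.0% of MZwnt11/slb and 34.2% of wildtype chrd cells, against 65.0% and 72.2% of cells without chrd. These shares describe cells of 1 library each and carry the difference between classes.

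Set against all genes with at least 50 UMIs, counts of members past 2-fold were small. Over all cells, szl was the 1 of 9 members at least 2-fold lower in MZwnt11/slb (12.0% of 13440 genes were) and chrd and nog1 were the 2 of 9 at least 2-fold higher (7.22% of genes). In prechordal-like cells 5 members had enough UMIs, of which bmp4 and admp were lower (3.01% of 2957 genes) and 0 higher (6.73%), and in notochord-like cells 0 of 4 were lower (2.88% of 2324 genes) and nog1 was higher (5.64%). In dorsal posterior ectoderm-like cells 0 of 6 were past 2-fold in either direction, where 4.69% of 6075 genes were lower and 4.66% higher. szl was the 1 lower member of 6 in the ventral ectoderm (10.2% of 7752 genes), with 0 higher (3.26%), and the 1 lower member of 7 in the ventrolateral margin (7.82% of 7749 genes), with 0 higher (4.57%). In the paraxial mesoderm bmp4 and szl were lower (6.29% of 6762 genes) and chrd and nog1 higher (5.13%) among 8, and in the anterior neural ectoderm szl was lower (8.31% of 5765 genes) and chrd higher (2.97%) among 7. The median log2 ratio of the members was -0.30 over all cells, beside -0.10 for all genes. With so few members these counts do not set them apart from the background as a group.

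The all-cell ratios of chrd and nog1 were smaller when both libraries were given the same makeup. When each class and unnamed cluster was given its wildtype share of UMIs, a step added after the data were seen, chrd in MZwnt11/slb was at 166.7 CPM in place of 266.9 CPM, beside 116.4 CPM in wildtype, which put its all-cell log2 ratio at 0.52. The log2 ratio of nog1 was then 0.73 in place of 1.55 and that of admp 0.42 in place of 0.92. The ventral genes moved less, with bmp4 at -0.87 in place of -0.96 and bmp7a at -0.75 in place of -0.87. szl in MZwnt11/slb was at 30.1 CPM in place of 23.7 CPM, beside 120.5 CPM in wildtype. Over all cells the summed prechordal markers were at 349.3 CPM in MZwnt11/slb and 195.6 CPM in wildtype. In 12 of the 29 clusters 1 library held over 80% of the cells, so makeup and level within a group cannot be fully told apart.

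**Figure D4:**
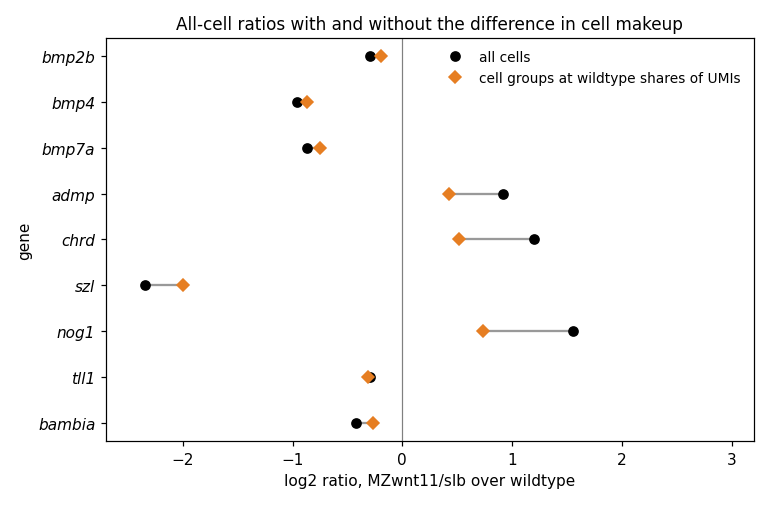
All-cell log2 ratio of MZwnt11/slb over wildtype for each of the 9 genes (x axis), as counted (circles) and with each of 22 groups of cells at its wildtype share of UMIs (diamonds). chrd, nog1 and admp move towards 0, to 0.52, 0.73 and 0.42, and szl stays the lowest of the 9.

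The other genes of the pathway were compared over all cells. Of the 8 other BMP-type ligands listed, 0 reached 50 UMIs, and the most counted was gdf6a (18 UMIs in MZwnt11/slb and 27 in wildtype). Together these 8 genes had 26 UMIs in MZwnt11/slb and 55 in wildtype. Among 7 measurable extracellular modulators and proteases of 22 listed, fsta, which encodes the activin and BMP binding protein follistatin, was higher in MZwnt11/slb (60 and 19 UMIs, log2 ratio 1.56, 0.80 to 2.39) and bmper, encoding a Chordin-related secreted protein, was lower (37 and 109 UMIs, -1.66, -2.24 to -1.11). The most counted gene of that list, sfrp1a, was at 0.37 (0.29 to 0.45) and the list's median was 0.30, beside -0.10 for all genes. The 1 lower and 1 higher gene of 7 stand beside 12.0% and 7.22% of all genes. The Tolloid-type protease gene bmp1a, named for its role after its value was seen, was at 0.30 (0.19 to 0.40).

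Of 11 measurable receptor genes 6 were below 0, with a median of -0.26 beside -0.10 for all genes, and bmpr1bb, a type I receptor gene of low level, was the 1 at least 2-fold lower (21 and 56 UMIs, -1.51, -2.31 to -0.77), where 12.0% of all genes were. The type I receptor gene acvr1l, the most counted, was at -0.26 (-0.32 to -0.20). Of 6 measurable Smad genes 5 were below 0, with a median of -0.36, and 1 was at least 2-fold lower, beside the same 12.0% of all genes. This gene, smad9, a receptor-regulated Smad of low level, was at 71 and 230 UMIs, -1.79 (-2.20 to -1.41), and the far more abundant smad5 was at -0.36 (-0.41 to -0.31).

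Of 15 measurable genes listed as BMP targets or ventral markers, 13 were below 0, with a median of -0.35 beside -0.10 for all genes. Ventral ectoderm-like cells were 5.02% of MZwnt11/slb and 17.7% of wildtype cells, and the part of makeup in this count was not tested. Inside that class 7 of 14 were below 0 (median -0.04, beside -0.11 for all genes), and in the dorsal posterior ectoderm 5 of 8 (-0.03 and -0.01). They were 13 of 13 in the ventrolateral margin (-0.20 and -0.07) and 9 of 12 in the paraxial mesoderm (-0.31 and -0.005). The anterior neural ectoderm had 9 of 12 (-0.16 and -0.06), notochord-like cells 5 of 6 (-0.55 and 0.07) and prechordal-like cells 2 of 4 (-0.21 and 0.08). The share of all genes below 0 was not counted, here or for receptors and Smads, so such counts stand beside medians only. Some targets also served to name classes: eve1, cdx4 and ved the ventrolateral margin, and foxi1, gata2a, tfap2c, tp63, klf2b and msx1b the ventral ectoderm. Counts inside those classes are not independent of the naming. Over all cells the ventral ectoderm factor foxi1 was the 1 of 15 at least 2-fold lower, where 12.0% of all genes were. It was at 31.2 CPM in MZwnt11/slb and 73.9 CPM in wildtype (-1.24, -1.34 to -1.14). In ventral ectoderm-like cells, a class named in part by foxi1, its ratio was -1.20 (-1.53 to -0.89). Cluster 22, led by foxi1, gave 26 of the 397 MZwnt11/slb and 258 of the 1570 wildtype cells of that class. The part of this makeup in the foxi1 ratio was not tested. The most counted target, id1, a direct BMP response gene, was higher at 760.7 and 677.1 CPM (0.17, 0.14 to 0.19), and the interval of id3 over all cells held 0 (0.02, -0.06 to 0.09). The ventral repressor genes ved, vent and vox, which like id3 were named after their values were seen, had log2 ratios of -0.35, -0.10 and -0.09. Within classes id1 went both ways: it was higher in MZwnt11/slb in the ventral ectoderm (0.38, 0.30 to 0.46) and the paraxial mesoderm (0.44, 0.32 to 0.56), and lower in the ventrolateral margin (-0.12, -0.18 to -0.06) and in notochord-like cells (-0.53, -0.83 to -0.23). id3 was lower in the ventrolateral margin (-0.72, -1.06 to -0.38) and the paraxial mesoderm (-0.32, -0.52 to -0.13).

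**Figure D5:**
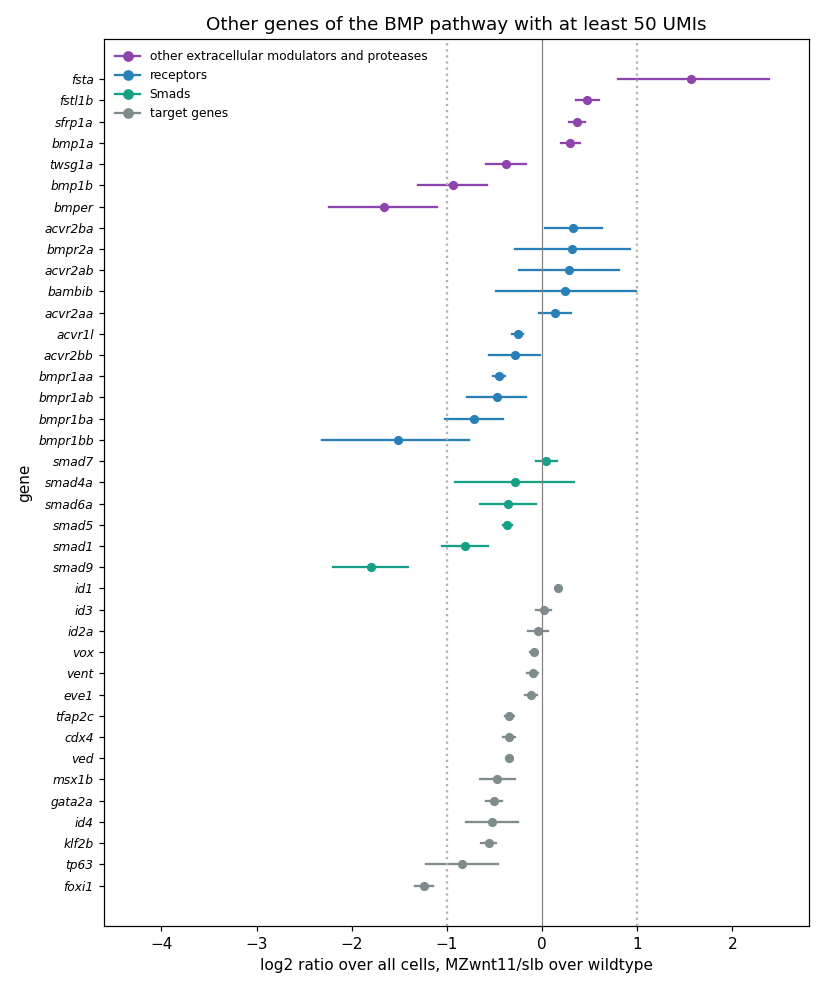
Log2 ratio over all cells of MZwnt11/slb over wildtype (x axis) for 39 other genes of the pathway with at least 50 UMIs, grouped by list and ordered within it, with exact conditional 95% counting intervals and dotted lines at 2-fold. fsta lies right of 2-fold, bmper, bmpr1bb, smad9 and foxi1 lie left of it, and most target genes lie slightly left of 0.

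Over 53 profiles, each a cluster with at least 20 cells in 1 library, the members fell into groups that mirrored the axis only in part. The genes most like chrd among 7745 with at least 500 UMIs were gsc (Pearson r = 0.85), foxa3 (0.82) and arl4ab (0.79). Those most like szl were bambia (0.82), hspe1 (0.81) and bmp7a (0.77), and those most like bmp4 were tbx16 (0.82), si:dkey-33c12.4 (0.81) and bmp7a (0.81). Among members, bmp2b and bmp7a were at 0.84 and chrd and nog1 at 0.73, while chrd and bambia were at -0.55 and chrd and szl at -0.50. With the ventral ligands chrd was closer to 0, at -0.19 (bmp4), -0.27 (bmp2b) and -0.33 (bmp7a). nog1 and bmp4 were at -0.02, and admp was at 0.18 with bmp4 and 0.03 with bmp7a. The profiles share libraries and depth, so these values describe the arrangement and were not tested.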

How the data were processed

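Single cells of whole shield-stage embryos were measured in 1 MZwnt11/slb and 1 wildtype library prepared with droplet 3′ chemistry. The deposited matrices hold raw UMI counts per gene and cell, which the authors made with Cell Ranger (6.1.1 in the submitters' processing notes, another version in the methods) on GRCz11. No cell was filtered here.

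The steps named in the methods were rebuilt with scikit-learn 1.9.0, igraph 0.11.9 and leidenalg 0.10.2: size factors, log10, 30 principal components, residuals on log10 UMIs, centring by sample, a graph of 20 neighbours and Leiden clustering at resolution 2. The 9 members and wnt11f2 were left out. A cluster was named with at least 3 markers at 1.5-fold, more markers than the next class, and no other class with more markers among its 10 leading genes. The axial cluster was split at resolution 0.7 after the clusters were seen. Scrublet called 0 MZwnt11/slb cells and 1 wildtype cell and was not used, so doublets were not removed.

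Levels are summed UMIs scaled to 1000000 UMIs of the class (CPM), with exact Poisson intervals, and log2 ratios carry exact conditional intervals. Genes were called at 2-fold with at least 50 UMIs in both libraries together. A floor is 3 counts. For shares of cells, cells were thinned to 2944 UMIs, which left out 1055 MZwnt11/slb and 2215 wildtype cells. The ratio step was checked on simulated data. Named genes were all members, pathway genes past 2-fold, the most counted gene of each list and the 3 genes most like chrd, bmp4 and szl, except where the text says otherwise. Members and lists were chosen with earlier results of these data known. The alternatives covered clustering, cell filters, gates, scaling and limits.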

Additional observations from a re-analysis of the deposited data

Results flagged for a closer look

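Some members differed between the libraries in opposite directions in different classes, beyond the counting interval of each ratio. The difference between classes was not tested, since each genotype had 1 library. bmp2b had a log2 ratio of MZwnt11/slb over wildtype of 0.25 in paraxial mesoderm-like cells and -0.59 in anterior neural ectoderm-like cells. Both signs turned with the clustering. The paraxial value ran between -0.17 and 0.36 over 10 other seeds, and was 0.62 in cluster 4 and -0.17 (-0.50 to 0.17) in cluster 23. The anterior neural value ran between -1.02 and 0.42 over 13 other settings. admp was at 1.17 in enveloping layer-like cells and -1.94 in prechordal-like cells. In the enveloping layer, cluster 24 (190 MZwnt11/slb and 41 wildtype cells) held 85 of the 87 MZwnt11/slb and 16 of the 36 wildtype admp UMIs. Within cluster 24 the admp ratio was -0.32 (-1.10 to 0.55), so the class value carries the unequal share of that cluster. chrd was at 1.97 in anterior neural ectoderm-like cells and -0.18 in prechordal-like cells. Its anterior neural value ran between -1.34 and 2.20 over 7 other seeds.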

How the results depend on the processing

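With 1 library per genotype, counting error is the only error measured, and members under 50 UMIs in a class could not be compared. No paired analysis was possible because each genotype had 1 library. The cause of the changes below was not tested. Of 14 ratios past 2-fold, 13 kept their sign under every setting run and 5 stayed past 2-fold. These 5 were szl over all cells (-2.41 to -2.0), in the ventrolateral margin (-2.68 to -2.16), the ventral ectoderm (-2.24 to -1.34) and the paraxial mesoderm (-3.56 to -2.20), and nog1 in the paraxial mesoderm (1.03 to 2.67). These ranges leave out the 10 other seeds. Over the seeds szl ran between -2.05 and -1.27 in the ventral ectoderm and between -2.87 and -2.07 in the paraxial mesoderm. nog1 in the paraxial mesoderm ran between 2.06 and 3.25 over them. The sign turned for chrd in the anterior neural ectoderm at resolution 3 (-1.03). Ratios under 2-fold also turned: without centring by sample, dorsal posterior bmp2b was at 1.84, bmp4 at 0.44, bmp7a at 0.74, bambia at 1.52 and admp at -0.43.

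Over all cells, members lower numbered 3 at a fold of 1.5 in place of 1, and members higher 0 at the wildtype makeup in place of 2. In prechordal-like cells the count of lower members went from 2 to 1 under resolutions 1 and 3, the unweighted graph, members kept in the clustering and no centring. It was also 1 with the cell filter, removal of the deepest cells, other seeds, gates, thinning and sub-clustering at 0.5, and 0 at a minimum of 200 UMIs. The member counted was not always bmp4 or admp. Neither was past 2-fold with the unweighted graph (-0.91 and -0.003) or with gates (-0.95 and -0.70). In notochord-like cells the 0 lower became 3 with gates, 1 without the deepest cells or with thinning and 2 at a fold of 1.5 or a minimum of 20 UMIs, and the 1 higher became 0 with members kept. In the dorsal posterior ectoderm the 0 lower became 2 with the cell filter or thinning and 1 under resolutions 1 and 3, removal of the deepest cells, other seeds, the mean over cells or a fold of 1.5. There the 0 higher became 3 without centring and 1 under resolution 1, the unweighted graph, members kept, the cell filter, removal of the deepest cells, thinning or a fold of 1.5. In the ventral ectoderm the 1 lower became 2 with thinning and 3 at a fold of 1.5, and the 0 higher became 2 with members kept, the cell filter or removal of the deepest cells and 1 with other seeds, thinning, a fold of 1.5 or a minimum of 20 UMIs. In the ventrolateral margin the 1 lower became 3 at a fold of 1.5, and the 0 higher became 2 with gates and 1 with the cell filter or a fold of 1.5. Removal of cells called by Scrublet was not run, since it called 0 MZwnt11/slb and 1 wildtype cells.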

Other observations

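Clusters that the markers did not name held chrd and bmp2b as well. Cluster 28, with 17 MZwnt11/slb and 10 wildtype cells and foxj1a, sox17, sox32 and noto among its leading genes, had chrd at 4180 CPM in MZwnt11/slb and 4422 CPM in wildtype, while bmp2b, bmp4, admp and szl had 0 UMIs in both libraries. Cluster 19, with 266 and 161 cells and the endodermal genes sox32 and sox17 among its leading genes, had bmp2b at 254.1 CPM in MZwnt11/slb and 207.1 CPM in wildtype and szl at 17.0 CPM in MZwnt11/slb and 204.0 CPM in wildtype. Cluster 25, led by apoa1a, with 71 and 139 cells, had bmp7a at 103.6 CPM in MZwnt11/slb and 325.1 CPM in wildtype. In the germ cell-like cluster 27, with 26 cells of each library, chrd was at 451.2 CPM in MZwnt11/slb and 116.8 CPM in wildtype. These values carry counting error only and were not tested.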
